A study of Mus musculus with 10 samples.

Results

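The comparison described here sets 3 cystic fibrosis (CF) knockout mice coded L against 2 controls. Members were chosen from the sample titles alone: arrays titled as CF knockouts whose code starts with L, and arrays titled as CF controls, 5 of the 10 arrays analysed here. All animals were B6xBALB F2 mice, the second generation of a cross between the C57BL/6 (B6) and BALB strains, and all RNA was total RNA labelled with biotin. The L knockouts had the codes LMCF (replicate 1), LFCF (replicate 2) and LFCF (replicate 3), and the controls DFW (replicate 1) and DMW (replicate 2). A further group, 5 knockouts coded H, served to estimate the spread and the term for the animal number. The letters D, F, H, L, M and W are not spelled out in the labels, and the labels leave out the Cftr allele, the genotype of the controls and the ages. The design text calls the knockouts CF-/- and speaks of more animals in both groups than are analysed here. The series title speaks of variable weight. Animal numbers in the titles lay in an upper range (L replicates 1 and 2) or in a lower range (L replicate 3 and both controls). With 2 controls, 3 L knockouts and no statement that each array is a separate animal beyond its own number, p-values measure the spread between these arrays.

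CFTR is the chloride and bicarbonate channel of the apical epithelial membrane, and its loss leaves mucus in the gut dehydrated and poorly unfolded. In the small intestine, enterocytes on the villus digest and absorb nutrients with brush border peptidases, transporters and lipid-resynthesizing enzymes. Crypts hold stem cells and Paneth cells, which secrete antibacterial proteins, and goblet cells supply the mucus. CF mice are known for intestinal obstruction, mucus accumulation and poor growth.

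The deposited values were linear intensities, with medians of 18.4 to 18.9 on the 10 arrays, so that the arrays already had a like distribution. Levels near these medians lie close to background. The labels give whole right lung as the source, but the enterocyte markers were bright: Fabp2 read 4374, 5178 and 3658 in the L knockouts and 7345 and 6715 in the controls, and Vil1 read 2762, 2999 and 2422 and 3721 and 3567. Sftpc, surfactant protein C of the lung alveolus, read 1381, 2377 and 1302 and 1189.9 and 1107, and Scgb1a1 of airway club cells 2060.3, 4245 and 2535 and 2667 and 2684. Both tissues' defining transcripts were thus present, and in such bulk samples fewer cells of a type and less RNA per cell cannot be told apart. Eif2s3y, a gene of the Y chromosome, read 105 and 106 in the arrays of these groups coded M, and 3.60, 4.20 and 4.58 in those coded F.

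Between L knockouts and controls, 47 of 13644 genes passed the threshold (limma adjusted p under 0.05), 0.344% of those tested. Of these, 40 fell (0.293%) and 7 rose (0.0513%). More than 2-fold changes were seen for 22 genes that fell and 4 that rose. Among the 47, the 6 largest falls were those of the cytochrome P450 Cyp3a25, the retinol dehydrogenase Rdh7, the amino acid transporter Slc7a15, the esterase Ces2a, Cftr itself and the cobalamin receptor subunit Amn. A secreted phospholipase, a mucin glycosyltransferase and glutathione reductase were among those that rose. At an unadjusted p under 0.05 stood 1959 genes, and the median log2 difference over all genes was -0.0057. For all 47 genes the 3 L arrays lay on 1 side of both controls, a position that 37.7% of all genes also showed. The count depended on single arrays: it was 0 without L replicate 3 or control replicate 1, 1 without H replicate 1 or 4, 8 without L replicate 2 or H replicate 5, 11 without control replicate 2, 12 without L replicate 1, 77 without H replicate 2 and 224 without H replicate 3. It was 578 without the term for the number range and 173 without that for the letter. In each of these fits all 47 genes kept their direction and an unadjusted p under 0.05, while their largest adjusted p reached 0.536 (limma, without control replicate 1). The 47 genes were chosen from these same arrays, so the kept direction is no separate check.

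**Figure D1:**
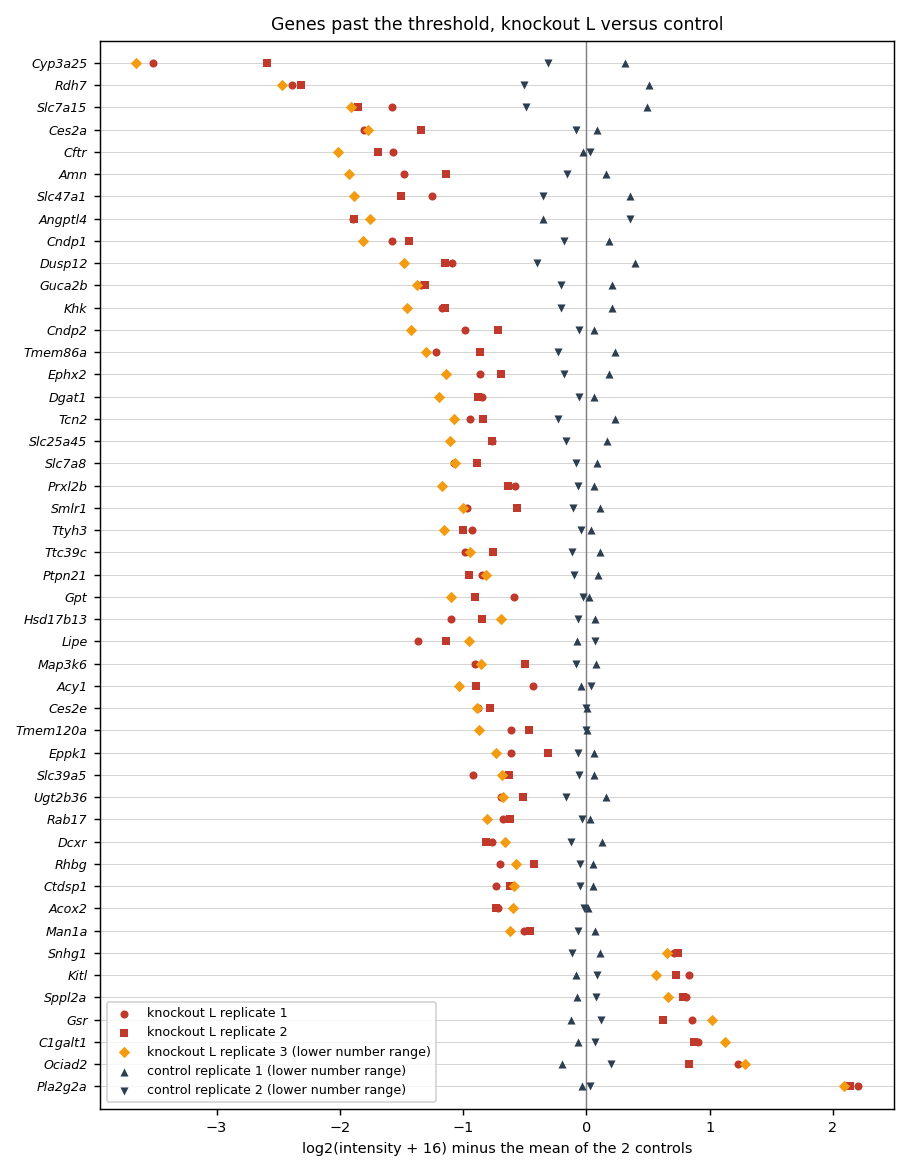
The 47 genes past the threshold, with each L and control array as log2(intensity + 16) minus the mean of the 2 controls. The 3 L arrays lie on 1 side of both controls for every gene; Cyp3a25 has the largest fall and Pla2g2a the largest rise.

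Cftr, the disrupted gene, read 34.5, 30.5 and 21.2 in the 3 L knockouts and 131 and 137 in the 2 controls. No L array came near a control. The mean was 28.7 ± 6.84 (SD, n = 3) against 134 ± 4.47 (SD, n = 2), a 3.56-fold fall (log2 difference -1.83 ± 0.20 SE, limma adjusted p = 0.0258). Here and below a fold comes from the fitted log2(intensity + 16) difference, which is smaller than the ratio of the means for dim transcripts. The difference was -1.94 to -1.70 when arrays were left out in turn, and the call was lost without each array other than H replicates 2 and 3 (limma adjusted p from 0.00212 to 0.53). A second probe set for the gene averaged 5.40 in L knockouts and 6.31 in controls, under the filter on dim probe sets in both groups. Of the 47 genes, Cftr and C1galt1 lie on chromosome 6, which holds 5.30% of the genes tested; the effect of alleles inherited along with Cftr and that of its loss cannot be told apart.

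Several of the genes that fell are enzymes or carriers of drug, ester and retinol metabolism, Cyp3a25 and Rdh7 with the largest differences of all. Cyp3a25, a drug-oxidizing cytochrome P450, read 8.22, 30.0 and 6.03 in L knockouts and 327 and 207 in controls (log2 difference -3.61 ± 0.32 SE, limma adjusted p = 0.0233). L replicates 1 and 3 lay below the array medians, where the added 16 weighs most. Rdh7, a retinol dehydrogenase, lay under the array medians in all 3 L arrays, with 12.6, 14 and 11.1 against 197 and 89.1 (log2 difference -2.60 ± 0.26 SE, limma adjusted p = 0.0257). The carboxylesterase Ces2a, which hydrolyses ester drugs and lipids, had the smallest p of all genes: 167, 236 and 171 against 662 and 585, a 3.70-fold fall (log2 difference -1.89 ± 0.11 SE, limma adjusted p = 0.00249). Its relative Ces2e read 597, 641 and 594 and 1113 and 1109.7 (log2 difference -0.85 ± 0.09 SE, limma adjusted p = 0.0257). For both esterases the controls lay close together and well above every L array. Slc47a1, an exporter of organic cations, read 22.4, 16.3 and 8.78 against 101 and 55.5 (log2 difference -1.73). The soluble epoxide hydrolase Ephx2 differed by -1.17, the glucuronosyltransferase Ugt2b36 by -0.73 and the xylulose reductase Dcxr by -0.73. Several of these enzymes belong to families of close paralogs, and how far their probe sets read a relative was not tested.

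**Figure D2:**
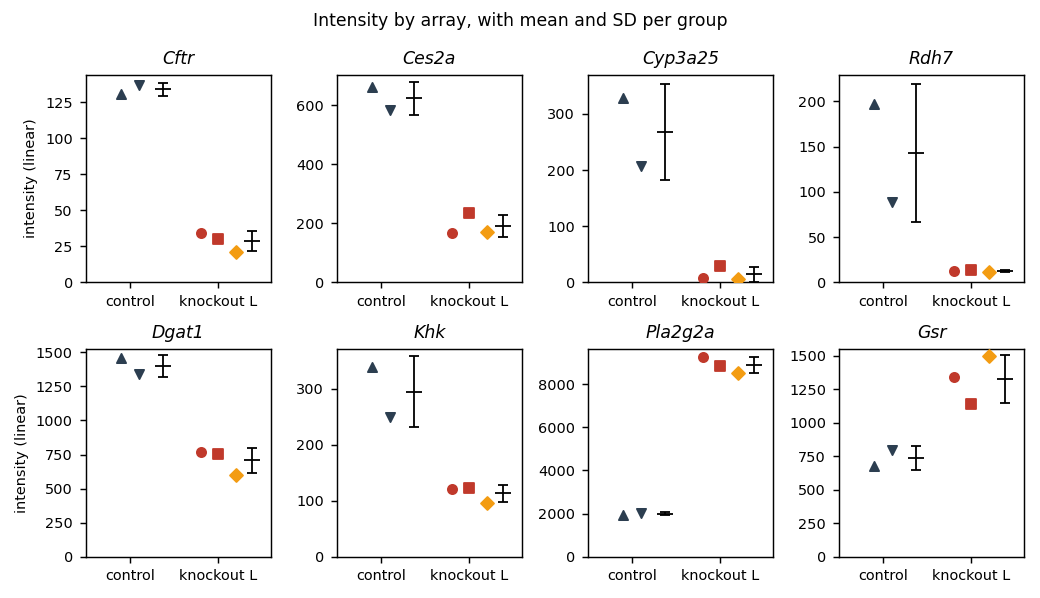
Linear intensity of 8 genes on the 2 control and 3 L arrays, with group mean and SD beside the points; triangles mark the controls and the diamond marks L replicate 3, which shares their number range. Pla2g2a and Gsr are higher in all 3 L arrays, and the other genes are lower.

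Promoters of Cftr and of 4 of the genes that fell most are shown so that the regions before the starts of genes that moved together can be read. Each covers 250 bases before to 50 bases after a gene start of RefSeq on GRCm38.p6, written 5′ to 3′, with the letters AGGTCA or their reverse complement TGACCT, the half-site of many nuclear receptors, in capitals. For Cyp3a25, Rdh7 and Slc7a15 the table had 2 starts, and 1 with a match was taken.
Cftr, chr6:18170437-18170736, plus strand: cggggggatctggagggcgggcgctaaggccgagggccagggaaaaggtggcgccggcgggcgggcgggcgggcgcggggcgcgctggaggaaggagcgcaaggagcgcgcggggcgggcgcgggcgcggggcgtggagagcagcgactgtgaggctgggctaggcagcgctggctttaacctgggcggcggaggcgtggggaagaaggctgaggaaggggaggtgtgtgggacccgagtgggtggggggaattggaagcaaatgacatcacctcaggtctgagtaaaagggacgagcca
Ces2a, chr8:104733753-104734052, plus strand: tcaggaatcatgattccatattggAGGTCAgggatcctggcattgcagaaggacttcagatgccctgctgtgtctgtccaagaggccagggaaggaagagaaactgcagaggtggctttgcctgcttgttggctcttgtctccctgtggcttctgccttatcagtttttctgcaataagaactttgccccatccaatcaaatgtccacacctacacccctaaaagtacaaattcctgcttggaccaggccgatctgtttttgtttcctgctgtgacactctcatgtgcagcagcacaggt
Cyp3a25, chr5:146009569-146009868, minus strand: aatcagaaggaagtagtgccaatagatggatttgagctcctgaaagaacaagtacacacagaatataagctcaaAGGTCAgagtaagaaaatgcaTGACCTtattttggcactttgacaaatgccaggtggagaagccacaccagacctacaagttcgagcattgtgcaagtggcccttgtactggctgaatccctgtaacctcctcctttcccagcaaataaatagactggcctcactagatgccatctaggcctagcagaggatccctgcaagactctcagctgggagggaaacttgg
Rdh7, chr10:127889198-127889497, minus strand: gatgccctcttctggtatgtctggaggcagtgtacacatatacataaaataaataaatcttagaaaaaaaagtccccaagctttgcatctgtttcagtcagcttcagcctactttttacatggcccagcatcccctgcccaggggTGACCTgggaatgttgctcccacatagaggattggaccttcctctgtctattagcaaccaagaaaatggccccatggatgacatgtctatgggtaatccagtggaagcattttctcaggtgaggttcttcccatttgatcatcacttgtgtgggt
Slc7a15, chr12:8599017-8599316, minus strand: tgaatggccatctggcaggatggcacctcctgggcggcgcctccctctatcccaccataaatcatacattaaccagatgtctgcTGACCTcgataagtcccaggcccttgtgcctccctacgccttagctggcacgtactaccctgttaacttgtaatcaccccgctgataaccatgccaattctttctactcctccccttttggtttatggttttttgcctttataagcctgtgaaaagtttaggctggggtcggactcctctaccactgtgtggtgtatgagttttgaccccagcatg
Of the 40 genes that fell, 29 had a promoter in the table, and AGGTCA on either strand occurred in 10 of them (34.5%), against 18.1% of the 27025 genes with a promoter and 15.6% of the tested genes with one. None of the 5 promoters found for the 7 genes that rose held it. TATAAA occurred in 1 of the 29 (3.45%) and in 3 of the 5, against 15.7% of all and 9.73% of the tested genes. The letters CAAAGTCCA of HNF4 were in none of the 29 (0.555% of all, 0.64% of the tested genes), and TGACTCA of AP-1 in 1 of the 29 (5.95% of all, 4.81% of the tested genes). The first match began 226 bases before the start in Ces2a, 176 in Cyp3a25, 105 in Rdh7 and 166 in Slc7a15. All motifs were searched on both strands, and none contains another. The motif shown was chosen after the sequences were seen, and no binding was measured.

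Genes of amino acid and peptide handling were also among those that fell. Slc7a15, an amino acid transporter, read 22.9, 16.2 and 14.9 against 147 and 66.5 (log2 difference -1.95 ± 0.28 SE, limma adjusted p = 0.0487), and the neutral amino acid exchanger Slc7a8 read 16.1, 20.5 and 16.3 against 55.5 and 47.6 (log2 difference -1.05 ± 0.10 SE, limma adjusted p = 0.0257). All L values of this pair lay near the array medians. The dipeptidase Cndp2, which cleaves absorbed dipeptides in the cytosol, was bright, with 1510.1, 1819 and 1111 against 3131 and 2879.9 (log2 difference -1.30 ± 0.19 SE, limma adjusted p = 0.0487). Its relative Cndp1, the carnosine dipeptidase, read 17.7, 21.0 and 12.6 against 97.9 and 72.7 (log2 difference -1.71). Gpt, alanine aminotransferase, and Acy1, an aminoacylase, differed by -0.93 and -0.86. Rhbg, an ammonium transporter, differed by -0.62 and the mitochondrial carrier Slc25a45 by -1.05.

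Uptake of cobalamin (vitamin B12) was represented by a receptor subunit and a carrier. Amn, amnionless, which anchors cubilin in the ileal receptor, read 283, 362 and 203 against 912 and 730.3, a 3.36-fold fall (log2 difference -1.75 ± 0.27 SE, limma adjusted p = 0.0496). Tcn2, transcobalamin, which carries the vitamin onward in blood, read 621, 668 and 566 against 1419.6 and 1027 (log2 difference -1.06 ± 0.15 SE, limma adjusted p = 0.0487), and its 4 other probe sets differed in the same direction. Cubn, cubilin itself, read 386, 344 and 221 against 2548 and 1597 but did not pass (log2 difference -2.68 ± 0.49 SE, limma adjusted p = 0.0717). The zinc importer Slc39a5 fell (log2 difference -0.74).

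In fat and sugar metabolism, Dgat1, which catalyses the last step of triglyceride synthesis, read 769, 751 and 602 against 1458 and 1341, a 2.10-fold fall (log2 difference -1.07 ± 0.12 SE, limma adjusted p = 0.0424). Khk, ketohexokinase of fructose breakdown, read 120.1, 122 and 96.1 against 339 and 249.8 (log2 difference -1.34 ± 0.18 SE, limma adjusted p = 0.0487). In both, every L array lay well below the lower control. Angptl4, an inhibitor of lipoprotein lipase, read 33.5, 33.8 and 38.3 against 128 and 218 (log2 difference -1.72 ± 0.25 SE, limma adjusted p = 0.0487). Lipe, the hormone-sensitive lipase, read 55.6, 67.9 and 79.6 against 160.0 and 178 (log2 difference -0.89 ± 0.13 SE, limma adjusted p = 0.0487). Lipe stands on the fat cell list, whose summed intensity over 8 genes was 947, 546 and 1131 in L knockouts and 1177 and 1639.8 in controls. Adipoq, the adipocyte hormone adiponectin, read 151, 55.3 and 118 against 202 and 283 without passing (limma adjusted p = 0.818). The part of fat tissue in the Lipe and Angptl4 differences was not tested. Hsd17b13, a lipid droplet protein, differed by -0.91, the peroxisomal oxidase Acox2 by -0.60 and the lysoplasmalogen hydrolase Tmem86a by -1.26.

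Guca2b, uroguanylin, the gut peptide that activates guanylate cyclase C upstream of CFTR, read 751, 768 and 732 in L knockouts and 2229 and 1666 in controls, a 2.62-fold fall (log2 difference -1.39 ± 0.17 SE, limma adjusted p = 0.0424). The 3 L arrays were nearly equal. Dusp12, a phosphatase, read 62.6, 59.5 and 44.1 against 205 and 111 (log2 difference -1.52). The remaining genes that fell complete the 40. They were the prostaglandin F synthase Prxl2b (log2 difference -1.04), Smlr1 (log2 difference -1.01), the membrane protein Ttyh3 (log2 difference -1.0), Ttc39c (log2 difference -0.97) and the tyrosine phosphatase Ptpn21 (log2 difference -0.94). The kinase Map3k6 (log2 difference -0.87), Tmem120a (log2 difference -0.79), the plakin Eppk1 (log2 difference -0.76), the epithelial GTPase Rab17 (log2 difference -0.73), the phosphatase Ctdsp1 (log2 difference -0.61) and the mannosidase Man1a (log2 difference -0.60) followed.

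Of the 7 genes that rose, Pla2g2a, a secreted antibacterial phospholipase of Paneth cells, changed most. It read 9266, 8840.3 and 8535 in L knockouts and 1950.3 and 2042 in controls, with both groups tight and far apart, a 4.63-fold rise (log2 difference 2.21 ± 0.23 SE, limma adjusted p = 0.0257). C57BL/6 mice carry a disrupted Pla2g2a, that allele can segregate in this cross, and its genotypes are not given here, so allele and knockout cannot be told apart. Ociad2 read 1079.8, 814 and 1125 against 389.8 and 520.1 (log2 difference 1.33 ± 0.19 SE, limma adjusted p = 0.0487). C1galt1, which builds the core 1 sugar chains of mucins, read 204, 199.8 and 240.2 against 96.1 and 108, higher in every L array than in both controls (log2 difference 1.09 ± 0.15 SE, limma adjusted p = 0.0487), and its 2 other probe sets differed by 1.47 and 1.5. Gsr, which regenerates reduced glutathione, read 1339, 1137 and 1501 against 674 and 799.8 (log2 difference 1.06 ± 0.16 SE, limma adjusted p = 0.0487). Kitl, the ligand of the Kit receptor of mast cells and interstitial cells, read 558, 516 and 460.4 against 288 and 325 (log2 difference 0.74 ± 0.11 SE, limma adjusted p = 0.0487). Kit itself read 119, 59.1 and 101 against 44.6 and 51.4 without passing (log2 difference 0.96). The membrane protease Sppl2a (log2 difference 0.78) and Snhg1, a host gene of small nucleolar RNAs (log2 difference 0.63), completed the 7.

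Other probe sets of the 47 genes numbered 32, for 19 genes. All 25 that were bright enough to be kept differed in the same direction as the one used, though some by little, such as 0.09 and 0.06 for a pair of low Kitl probe sets. That direction is the fitted one: the plain means of the latter Kitl set were 38.4 in L knockouts and 44.2 in controls, the other way. Within the lower number range, where L replicate 3 is the only L array beside both controls, all 47 genes differed in the fitted direction. The difference was over 1.5-fold for 45, and it was -2.01 for Cftr, -1.77 for Ces2a and 2.09 for Pla2g2a. L replicate 3 and both controls had helped to choose the 47 genes, so this agreement is no separate check. Nor is a fit of the lower number range. A fit of the 5 arrays in that range, which assumes that the lone L array varies like the other groups, called 511 genes, 39 of the 47 among them, and Cftr had a limma adjusted p of 0.00394.

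Beyond single genes, lists of related genes were described by their counts and median, beside a median of -0.0057 and 51.5% of lower values over all genes. Lists of nutrient digestion and uptake had negative medians. All 10 genes tested for sugar uptake and metabolism had lower values, and in all 10 the L arrays lay below both controls, as in 19.6% of all genes (median -0.78). Khk alone passed. Fbp1, a gluconeogenic phosphatase, read 44.1, 49.8 and 50.5 against 226 and 101 (limma adjusted p = 0.0638), and the glucose phosphatase G6pc read 11.6, 15.4 and 9.88 against 30.7 and 26.1 (adjusted p = 0.0631). All L values of G6pc lay under the array medians. It passed the filter on dim genes only with the brighter controls in the mean, so its place among the 10 is no separate support. Brush border peptidases and disaccharidases had lower values for 12 of 12 (median -0.74), 10 of them with all L arrays below both controls, and none passed. The aminopeptidase Xpnpep2 read 256, 296 and 183 against 996 and 679 (limma adjusted p = 0.0648), and the peptidase Naaladl1 2124, 2232 and 1690.5 against 4154 and 3811 (adjusted p = 0.0847). Amino acid and peptide transporters had lower values for 13 of 14 (median -0.75), 12 of them with all L arrays below, and Slc7a15 and Slc7a8 passed. The imino acid transporter Slc6a20a read 144, 381 and 134 against 1121 and 599 (log2 difference -2.38 ± 0.41 SE, limma adjusted p = 0.0638). L replicate 2 lay above the other L arrays.

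Fat absorption and chylomicron genes had lower values for 19 of 21 (median -0.44), and for 12 all L arrays lay below both controls, as in 19.6% of all genes. Their mean log2 deviations were 0.0041, 0.021 and -0.45 in L replicates 1 to 3 and 0.21 and 0.21 in the controls. L replicate 3 thus lay far below the other L arrays. Only 1 gene passed, Dgat1. Mogat2, its partner in triglyceride synthesis, read 629.6, 606 and 492 against 1016 and 885 (limma adjusted p = 0.0721), and the sterol exporter Abcg5 468, 562 and 372 against 812 and 641 (adjusted p = 0.0638). Drug metabolism and efflux genes had lower values for 19 of 24 (median -0.60), with Cyp3a25, Ces2a and Ces2e past the threshold. Cyp4v3, a fatty acid hydroxylase, read 59.5, 152 and 57.8 against 587 and 351 (log2 difference -2.68 ± 0.48 SE, limma adjusted p = 0.0656), with L replicate 2 above the other L arrays. The efflux pump Abcc2 read 22.0, 27.7 and 10.6 against 64.2 and 46.0 (log2 difference -1.30). Arginine and citrulline genes had lower values for 10 of 11 (median -0.65), none past the threshold. The mitochondrial arginase Arg2 read 63.9, 83.5 and 50.6 against 443 and 318 (log2 difference -2.44 ± 0.56 SE, limma adjusted p = 0.102), and Prodh, proline dehydrogenase, 166, 183 and 118 against 257 and 252 (log2 difference -0.81).

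Smaller medians were seen for bile acid handling (-0.11 over 9 genes), vitamins and minerals (-0.15 over 19) and fat oxidation with PPAR alpha targets (-0.19 over 18). None of the bile acid genes passed; the subunits of the ileal bile acid exporter read 1790.2, 1887 and 1821 against 3367 and 2883 for Slc51a (limma adjusted p = 0.0552) and 1173, 1272 and 1086 against 1899 and 1686 for Slc51b (adjusted p = 0.053). Amn and Rdh7 passed among the vitamin genes, and Angptl4 among the fat oxidation genes. The oxidation enzyme Acaa2 read 249.9, 307 and 346 against 504 and 488 (log2 difference -0.80). On the small intestine epithelium list, none of 14 passed (median -0.088), and its summed intensity was 32275 to 36324 in L knockouts and 38318 to 38567 in controls. The intestinal transcription factor Cdx2 read 282, 282 and 255 against 502 and 456 (log2 difference -0.86 ± 0.15 SE, limma adjusted p = 0.0638).

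Ion transport genes had no common direction, with 10 of 20 higher, 10 lower, none past the threshold and a median of 0.0066. The sulfate transporter Slc13a1 read 2659, 1959.6 and 1429.9 against 4017 and 3022 (limma adjusted p = 0.148). Among Cftr and its scaffold partners (10 tested, median -0.0077), Cftr alone passed. Pdzk1, a scaffold of brush border transporters, read 129.6, 91.3 and 65.1 against 1463 and 780.1, a large difference that missed the threshold (log2 difference -3.48 ± 0.74 SE, limma adjusted p = 0.0888). Slc9a3r1, which binds the CFTR tail, read 2053, 1791 and 1673 against 3163 and 2931 (log2 difference -0.72 ± 0.14 SE, limma adjusted p = 0.0766). Water channels and carbonic anhydrases (15 tested, median -0.14) had no member past the threshold. Car8, a carbonic anhydrase relative, read 403, 191 and 348 against 104 and 95.9 (log2 difference 1.74), and Car13 111, 112 and 95.3 against 209 and 148 (log2 difference -0.79).

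The Paneth, goblet and crypt base lists had positive medians, while the enteroendocrine list, given further below, had a negative one. Paneth cell genes had higher values for 7 of 9 (median 0.72), and all L arrays lay above both controls for 6, as in 18.0% of all genes. Pla2g2a alone passed; the transcription factor Sox9 read 65.5, 40.7 and 83.1 against 37.5 and 33.1 (limma adjusted p = 0.191). Goblet cell genes had higher values for 15 of 18 (median 0.64), 11 of them with all L arrays above both controls, and none passed. Galnt3, a mucin glycosylation enzyme, read 346, 247 and 333 against 168 and 192 (log2 difference 0.85), and Foxa1, a lineage factor, 368, 325 and 364 against 244 and 227 (log2 difference 0.54). Retnlb, a secreted goblet cell protein singled out after its values were seen, read 5207, 937 and 3842 against 20.2 and 512. Its fitted log2 difference of 6.00 did not pass (limma adjusted p = 0.102). It ranged from 4.28, without covariates, to 6.82, without control replicate 2, passed the threshold only without H replicate 3 (adjusted p = 0.0489), and rests on a control near the array medians. Crypt base genes had higher values for 10 of 15 (median 0.12), none past the threshold. Prom1 read 1284, 1148 and 1836 against 403 and 709.6 (log2 difference 1.57) and the adhesion receptor Cd44 307, 427 and 346 against 115 and 139 (log2 difference 1.19). The summed intensity of the crypt base list was 4306, 4329 and 4771 in L knockouts and 2522 and 2399 in controls. Of 23 cell cycle genes, 20 had higher values (median 0.18), 17 of them with all L arrays above both controls, and none passed. The replication gene Mcm4 read 173, 177 and 152 against 105 and 111 (log2 difference 0.48), and the reductase subunit Rrm1 207, 196 and 168 against 122 and 71.1 (log2 difference 0.80).

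**Figure D3:**
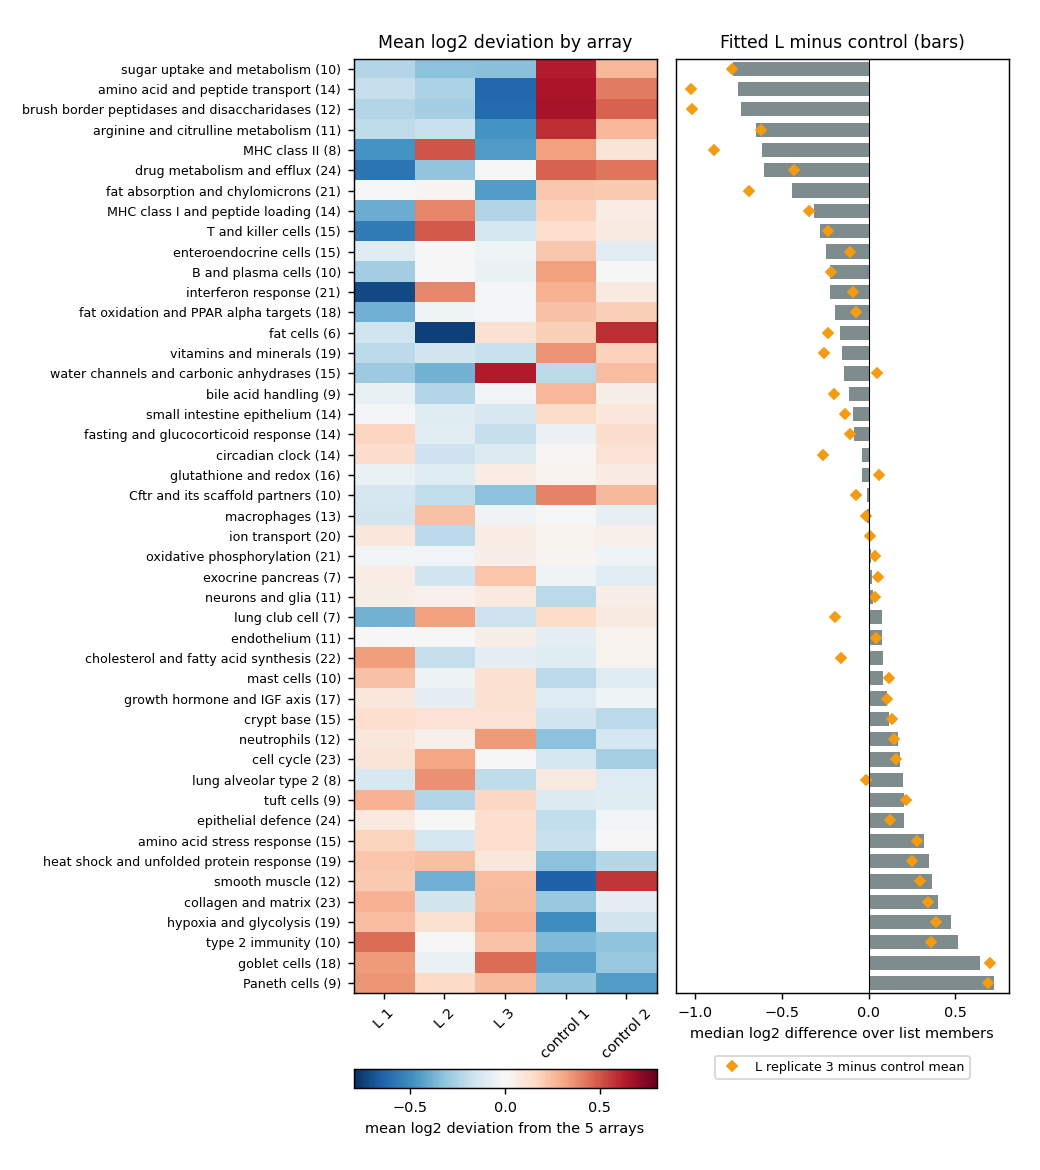
Left, mean log2 deviation of each list's tested genes (number in brackets) on the 3 L and 2 control arrays, from their mean over these 5 arrays; right, the median fitted log2 difference (bars) and that of L replicate 3 alone (diamonds). Sugar, amino acid and brush border lists stand lowest in L knockouts, and Paneth and goblet cell lists highest.

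Defence genes varied. On the epithelial defence list 14 of 24 had higher values (median 0.21) and none passed. Cfi, a complement protease, read 152, 79.0 and 109 against 30.3 and 37.9 (log2 difference 1.38 ± 0.28 SE, limma adjusted p = 0.0832), and Nfkbiz, a regulator of NF-kappaB target genes, 350.2, 325 and 347 against 162 and 239.9 (log2 difference 0.88). Neutrophil genes had a median of 0.17 over 12, and the neutrophil glycoprotein Cd177 read 221, 320.0 and 411 against 35.1 and 76.8 (log2 difference 2.28 ± 0.45 SE, limma adjusted p = 0.0815). Type 2 immunity genes had higher values for 9 of 10 (median 0.52), none past the threshold. The chemokine Ccl8 read 183, 176 and 161 against 32.8 and 69.2 (log2 difference 1.64 ± 0.36 SE, limma adjusted p = 0.0932), and the alarmin Il33 53.1, 40.4 and 51.3 against 20.4 and 29.3 (log2 difference 0.82). Mast cell genes had a median of 0.083 over 10, with 185, 82.7 and 101 against 30.0 and 80.0 for the protease Mcpt1. Tuft cell genes stood at 0.21 over 9 and macrophage genes at -0.0066 over 13, none past the threshold. Summed tuft cell intensity over 10 genes was 418, 232 and 363 in L knockouts and 261 and 271 in controls, with L replicate 2 below both controls.

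Genes of stress and matrix had mostly higher values without any member past the threshold. Hypoxia and glycolysis genes had higher values for 18 of 19 (median 0.48), with all L arrays above both controls for 10, as in 18.0% of all genes. Ero1a, an oxidase of protein folding, read 465, 301 and 439 against 129 and 194 (log2 difference 1.5), and the collagen hydroxylase P4ha1 117, 105 and 80.5 against 30.2 and 52.4 (log2 difference 1.14). Heat shock and unfolded protein response genes had higher values for 19 of 19 (median 0.35), 15 of them with all L arrays above. The chaperone Hsp90aa1 read 1904, 2110.4 and 1686 against 937 and 1334 (log2 difference 0.83). Collagen and matrix genes had higher values for 22 of 23 (median 0.40). All L arrays lay above both controls for only 6 of them, little over the 18.0% of all genes. The proteoglycan Lum read 297, 218 and 275 against 104 and 122 (log2 difference 1.16 ± 0.24 SE, limma adjusted p = 0.0847). Smooth muscle markers also had a positive median. Their summed intensity over 12 genes was 11357, 7836 and 12304 in L knockouts and 6703 and 13912 in controls, so the controls spanned the L arrays. The median of the smooth muscle list was 0.37, and -0.20 without control replicate 1. The part of muscle in the matrix difference was not tested. Amino acid stress genes had a median of 0.32 over 15. Their mean log2 deviations were 0.18, -0.14 and 0.14 in L replicates 1 to 3 and -0.18 and 0.001 in the controls, so L replicate 2 lay between the controls.

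Antigen presentation and lymphocyte lists had lower medians, but the L arrays did not stand together. MHC class II genes had lower values for 8 of 8 (median -0.61), though only 1 had all L arrays below both controls, a position of 19.6% of all genes. Their mean log2 deviations were -0.48, 0.50 and -0.45 in L replicates 1 to 3 and 0.33 and 0.10 in the controls. T and killer cell genes showed -0.56, 0.49 and -0.14 against 0.14 and 0.07 (median difference -0.28). Interferon response genes showed -0.72, 0.38 and -0.013 against 0.28 and 0.073 (median -0.22). L replicate 2 was thus the highest and L replicate 1 the lowest of the 5 arrays on the T and killer cell and interferon lists, with both controls between them. MHC class I genes had a median of -0.31 over 14 and B and plasma cell genes of -0.22 over 10. The immunoglobulin chain Ighm read 114, 115 and 119 against 419 and 176 (log2 difference -1.11), and the antiviral gene Rsad2 25.5, 53.6 and 99.3 against 155 and 145 (log2 difference -1.03). None of these lists had a gene past the threshold.

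L replicate 2 also stood apart from L replicates 1 and 3 in other lists. Lung club cell and alveolar type 2 transcripts summed to 5722 and 4158 there, against 3033 and 2692 in L replicate 1, 3847 and 2310.1 in L replicate 3 and 4560.3 to 4850.1 and 2923 to 3237 in the controls. Slc34a2, a phosphate transporter on that list that the intestine also expresses, read 622, 733 and 355 against 1309.5 and 1162 (log2 difference -1.30). The malic enzyme Me1 read 717, 189 and 607 against 112 and 144 (log2 difference 2.57, limma adjusted p = 0.205), and the pancreatic lipase cofactor Clps 2936, 767 and 1975 against 774 and 911 (log2 difference 1.57, adjusted p = 0.415). In both, L replicate 2 was the lowest L array. The exocrine pancreas list had a median of 0.022 over 7 genes and the liver list of 0.60 over 4, with 132, 94.9 and 256 against 58.5 and 59.9 for the aminotransferase Tat. Of the 4 liver genes tested, 2 had higher and 2 lower values, and 5 more lay below the filter. Summed over these 9 genes, liver intensity was 339, 219 and 463 against 236 and 278, with L replicate 2 below both controls.

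Lists with medians near that of all genes were oxidative phosphorylation (0.017 over 21), the circadian clock (-0.04 over 14), glutathione and redox (-0.039 over 16, Gsr past the threshold) and endothelium (0.08 over 11). So were neurons and glia (0.024 over 11), lung club cells (0.077 over 7) and cholesterol and fatty acid synthesis (0.081 over 22). The neuropeptide Vip read 275, 340.3 and 207 against 50.7 and 93.1 (log2 difference 1.58). On the neuron and glia list, 6 of 11 genes had higher and 5 lower values. All L arrays lay above both controls for 2 of them and below for 1, positions held by 18.0% and 19.6% of all genes. Lung alveolar type 2 stood at 0.20 over 8, fat cells at -0.16 over 6 and red blood cells at -0.12 over 3. Enteroendocrine cells had a median of -0.24 over 15, with 9 genes lower and 6 higher, so the list had no common direction. Somatostatin, Sst, was among the lower ones, with 170.5, 139.6 and 160.1 against 363 and 238 (log2 difference -0.89). The fasting and glucocorticoid list stood at -0.083 over 14, with 9 genes lower and 5 higher. On it, the clock gene Per1 read 45.6, 29.9 and 34.7 against 58.1 and 79.3 (log2 difference -0.59). Ddit4 went the other way, with 237, 247 and 222 against 136 and 180 (log2 difference 0.65). Growth hormone and IGF genes stood at 0.11 over 17, with 22.9, 26.5 and 38.4 against 18.3 and 19.4 for the binding protein Igfbp2 (log2 difference 0.70).

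Whether the L knockouts differed from the H knockouts was tested in the same model, in which the controls enter only through the shared spread and the letter term. No gene passed (0 of 13644; smallest limma adjusted p = 0.9998), and 303 genes (2.22%) stood at an unadjusted p under 0.05. Among the 47 genes, which the L arrays had helped to choose, the L minus H difference was under 1.5-fold for all 47, and its unadjusted 95% interval covered 0 for 37. Cftr differed by 0.10 (95% interval -0.24 to 0.44), Pla2g2a by 0.21 (95% interval -0.19 to 0.61) and Cyp3a25 by -0.50 (95% interval -1.06 to 0.056). The interval for Cyp3a25 was the widest of these, and the missed threshold does not show that the knockout groups are alike.

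**Figure D4:**
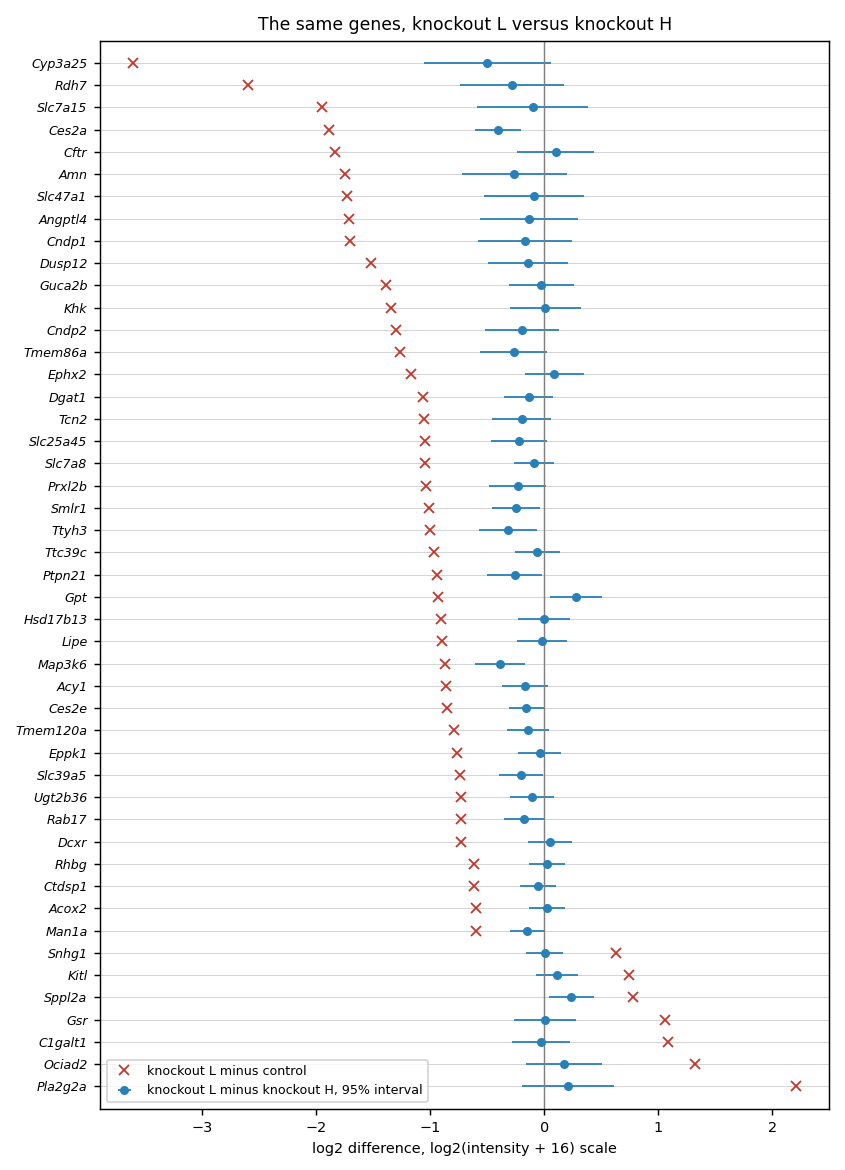
For the 47 genes, the fitted log2 difference of L from H knockouts with its unadjusted 95% interval (circles) and that of L knockouts from controls (crosses). The circle farthest from 0 is that of Cyp3a25, at -0.50, and 37 of 47 intervals cover 0.

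The genes nearest to a difference between L and H knockouts, by moderated t, were named without having passed. Cldn8, a tight junction claudin, read 8.36, 18.6 and 18.1 in L knockouts and 19.6 to 29.0 in H knockouts (median 26.5), dim on every array, a log2 difference of -0.67 (95% interval -0.89 to -0.45). Ces2a read 194 to 255 in H knockouts (median 234), a difference of -0.40 (95% interval -0.60 to -0.21), and the kinase Map3k6 40.8, 59.5 and 42.9 in L and 54.3 to 67.5 in H (median 58.3), a difference of -0.39 (95% interval -0.61 to -0.17). L and H arrays overlapped for Ces2a and Map3k6 and did not for Cldn8. On the other side, Tesc, a calcium-binding protein, read 55.7, 43.0 and 49.4 in L and 32.1 to 43.9 in H (median 34.1), with a difference of 0.40 (95% interval 0.18 to 0.62). Smc5, of the complex that repairs chromosomes, read 46.2, 40.4 and 33.5 in L and 26.2 to 36.0 in H (median 35.6), with 0.29 (95% interval 0.13 to 0.45). Ccdc181 read 32.1, 26.6 and 26.9 in L and 20.2 to 25.5 in H (median 24.7), with 0.28 (95% interval 0.12 to 0.43). L and H arrays overlapped for Tesc and Smc5 and did not for Ccdc181. List medians of L minus H were -0.036 for sugar, -0.061 for amino acid and 0.026 for fat absorption genes. The medians farthest from 0 were 0.53 for smooth muscle, -0.34 for lung alveolar type 2, 0.33 for fat cells and -0.29 for lung club cells, with no test.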

How the data were processed

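The deposited table held linear intensities of 45101 Affymetrix probe sets on 10 arrays that already had a like distribution. How the authors made these values (software, normalization) is not given in the sources used here. Of 45037 probe sets other than array controls, 34945 had 1 gene symbol, 932 several and 9160 none; symbols were updated through the RefSeq table (GRCm38.p6), and the probe set with the highest mean stood for each of 18193 genes. The 13644 genes with a mean above the 25th percentile (intensity 13.6) were tested on log2(intensity + 16) of the deposited values with limma 3.58.1 in R 4.3.3. The model held all 10 arrays in 3 groups, the number range and the letter M or F, and was two-sided. A trial on simulated data used noise set below the spread of these arrays, so it does not show how well the model does here. Adjustment was Benjamini-Hochberg over all genes, with a threshold of 0.05. Arrays correlated at 0.978 to 0.982 within the L group, and none were identical. Precision is limited by the number of arrays. Figures were drawn with matplotlib 3.10.9.

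The naming rule took Cftr, then in either direction the 14 largest differences past the threshold at most, the members of each list with the smallest p (up to 4 past the threshold and up to 2 others), 3 genes of each direction between L and H knockouts by moderated t, and tissue and letter checks. The other genes past the threshold were added because the count is small. Members and lists were chosen with earlier results of these data known. Alternatives were the pseudocount, the filter, the probe set rule, quantile normalization, an intensity trend, the covariates, the arrays in the fit and each array left out.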

Additional observations from a re-analysis of the deposited data

Results flagged for a closer look

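In the comparison of L with H knockouts, Smc5 read 26.2 in H replicate 4, far below the other 4 H arrays for the spread of that group. H replicate 4 was the only H array coded F, and the flag took no account of the letter. It was the only flagged array among the 6 genes named for that comparison, and chance flags about 1 in 20 groups.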

How the results depend on the processing

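The counts of genes past the threshold between L knockouts and controls (47, 7 higher and 40 lower) moved with most choices. They were 4 (1 higher, 3 lower) without a pseudocount, 5 (0 and 5) without the filter, 3 (1 and 2) with genes above the median intensity only, and 5 (1 and 4) over every probe set with a gene. They were 578 (238 and 340) without the number range, 173 (36 and 137) without the letter, 543 (215 and 328) without covariates and 511 (208 and 303) in the lower number range only. With L and control arrays only they were 44 (7 and 37), of which 14 were among the 47, and 4 (2 and 2) with the number range. Leaving out each array in turn gave 0 to 224 in total, 0 to 84 higher and 0 to 140 lower. A pseudocount of 64, the mean of all probe sets, quantile normalization and an intensity trend gave 42, 43, 45 and 46, with 35, 32, 41 and 40 of the 47 among them. The causes were not tested. Cftr stayed lower in all 23 settings but missed the threshold without a pseudocount (-2.37, limma adjusted p = 0.0649) and without the filter (-1.83, 0.0609); leaving out arrays gave -1.94 to -1.70. All 47 genes kept their direction wherever they were tested, which is no separate check because the same arrays had chosen them. Between L and H knockouts the count was 0 in all settings but the lower number range only, which gave 1 (1 higher, 0 lower). No list median changed sign with quantile normalization. Under other choices the medians of both lung lists, exocrine pancreas, fat cells, smooth muscle, neurons and glia, endothelium, macrophages, Cftr and its partners, ion transport and water channels did. So did those of the fasting, growth hormone, cholesterol, oxidative phosphorylation, glutathione and clock lists. No paired analysis was possible because the labels give the groups no shared replicate numbers.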
